A study of Mus musculus with 12 samples.

Results

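RNA polymerase II (Pol II) was compared with RNA polymerase III (Pol III) in mouse liver by chromatin immunoprecipitation with sequencing (ChIP-seq), over the stretches of the genome that all 12 deposited files list. The comparison used 6 of the 12 libraries: 2 made with an antibody to RPB2, a core subunit of Pol II, against 4 made with antibodies to Pol III, namely 2 to RPC1, its largest subunit, and 2 to RPC4, a smaller subunit. All stretches listed in every file were used, 532 in number, each from 370 to 1170 bp long (median 373 bp), and 478 of them passed a filter on low coverage and were tested. All libraries came from livers of C57/BL6 males aged 12 to 14 weeks, with no genetic change or drug in any group. The animals lived in cycles of 12 h light and, for the last 7 days, fed only in the dark. Livers were taken from 5 mice 2 h after lights on (Zeitgeber time 2) and, as the biological replicate, from 5 at time 26. The labels do not say which replicate number is which time, nor whether livers were pooled, so the p-values below measure only the spread between these libraries. The liver label was not checked against marker genes here.

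Pol III makes short RNAs that every cell needs, among them tRNAs, 5S rRNA, U6, 7SK and 7SL. At tRNA genes the promoter lies inside the gene, as an A box and a B box that the factor TFIIIC binds, and TFIIIB then brings Pol III to the start. Genes such as U6, 7SK and the RNase P RNA gene have promoters upstream of the start instead, called type 3. Pol II transcribes protein-coding genes, and it is also known to sit near many active Pol III genes.

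The files hold coverage, the number of reads over each base, not scaled for depth. To compare libraries, each stretch's mean coverage was divided by the mean of its file, which is called relative coverage here, so 1 is the file average. The ratio below is the log2 relative coverage of RPB2 minus that of Pol III (mean of RPC1 and RPC4), and a positive value means that RPB2 held a larger share of its file than Pol III did of its own. Shares in a file add up to a fixed sum, so a larger share at some stretches goes with a smaller one at others.

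Over the stretches the RPB2 files held 14779 and 13848 read equivalents of 76 bp, against 115660 and 82276 for RPC1 and 151907 and 160705 for RPC4. The RPB2 files were thus the shallower ones. The median absolute log2 difference between replicates, over tested stretches, was 0.485 for RPB2, against 0.169 for RPC1 and 0.170 for RPC4. The fit estimates 1 spread per stretch from all 6 libraries, so its errors take the RPB2 spread as smaller than RPB2 alone shows, and its p-values are then too small. The input files, of chromatin without antibody, held 3563 and 3365 read equivalents. By GENCODE annotation and a search for tRNA cloverleaves, 376 stretches held tRNA genes (their names below are predictions), 50 held 5S rRNA genes, 14 held type 3, 7SL or vault RNA genes, and 92 matched no such gene. Fractional coverage, as a read divided among several places would give, covered over 50% of bases at 80 stretches, 50 of them the 5S stretches.

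The sequences that follow belong to the stretches at the 2 ends of the ratio, with coordinates on mm9 and letters read from the NCBIM37 genome. The first is the tRNA-Arg(ACG) gene of the stretch with the lowest ratio (chr13:22113013-22113085, minus strand). The next is the same 73 bases at another place (chr9:123438543-123438615, minus strand), where the ratio was positive. Capitals in both mark the 11 letters of the B box, GGTTCGA followed by any 2 bases and CC. The last is the tRNA-Met(CAT) gene of the stretch second from the bottom (chr13:21259473-21259545, plus strand), with no match to these letters and so no capitals.
tRNA-Arg(ACG), chromosome 13: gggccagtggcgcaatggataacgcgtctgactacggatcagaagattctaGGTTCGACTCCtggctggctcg
tRNA-Arg(ACG), chromosome 9: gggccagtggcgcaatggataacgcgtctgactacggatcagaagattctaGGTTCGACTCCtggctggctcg
tRNA-Met(CAT), chromosome 13: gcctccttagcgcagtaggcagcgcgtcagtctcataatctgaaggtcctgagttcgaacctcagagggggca

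At the other end of the scale stand a stretch over the start of Zfp259, which codes for a zinc finger protein, and one over the pseudogene Gm10060. For Zfp259 the 150 bases before its annotated start are shown (chr9:46080997-46081146, plus strand), with capitals for the 13 bases from the RPB2 maximum to the base before the start. For Gm10060 the 121 bases around the RPB2 maximum are shown (chr8:19784712-19784832, plus strand), with capitals for the central 21.
Zfp259, before the start: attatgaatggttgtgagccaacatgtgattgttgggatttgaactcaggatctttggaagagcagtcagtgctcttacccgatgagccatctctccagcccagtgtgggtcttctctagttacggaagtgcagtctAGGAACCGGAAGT
Gm10060, around the RPB2 maximum: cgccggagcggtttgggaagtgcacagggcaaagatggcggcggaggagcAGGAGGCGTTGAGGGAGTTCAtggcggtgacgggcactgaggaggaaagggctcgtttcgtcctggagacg

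RPB2 and Pol III did not share the stretches in 1 common proportion. With limma and Benjamini-Hochberg adjustment, RPB2 held a larger share than Pol III at 168 of 478 tested stretches (35.1% of those tested) and a smaller share at 165 (34.5%). The median ratio was -0.03 on the log2 scale, or -0.15 with RPB2 replicate 1 and 0.17 with replicate 2 (SD 0.228, n = 2), and the interquartile range was 2.44. The ratio ran from -2.60 to 7.62, with a median SE of 0.263. It was at least 2-fold above the median at 151 stretches and at least 2-fold below it at 121, at least 4-fold above at 48 and below at 19, and at least 8-fold above at 9 and below at 0. The spread was therefore longer on the side of RPB2. Both RPB2 values lay above all 4 Pol III values at 185 stretches (38.7%) and below all 4 at 171 (35.8%). The 5 stretches nearest the median had log2 ratios from -0.04 to -0.01, and among them were 2 5S rRNA genes and a tRNA-Gln(CTG) gene on chromosome 3. At that gene RPB2 relative coverage was 0.0805 and 0.102, against 0.0833 and 0.0886 for RPC1 and 0.103 and 0.107 for RPC4, so the groups overlapped.

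How many stretches fall on each side depends on where the zero of the ratio is set. Centred on the common ratio, the counts were 174 higher (36.4%) and 163 lower (34.1%). A scaling that instead divides each library by its level at the 25% of stretches with the lowest Pol III coverage moved the median ratio to -2.735, and with it 14 stretches were higher (2.93%) and 356 lower (74.5%). These 14 were all among the 168, and all of the 165 lower ones were among the 356. A fit of all 12 libraries, which takes the spread from shallow libraries too, called 92 higher (19.2%) and 66 lower (13.8%), all of them also called with the 6. With the scaling on low stretches the interquartile range was 2.96. Division of whole libraries alone would move all ratios alike, but the small constant added before the log was also set anew. Quartering that constant under the main scaling gave an interquartile range of 2.96 too. The part of each in the wider range was not tested.

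The stretches with a larger RPB2 share were for the most part those where Pol III was low. Of the 168, only 14 had a Pol III relative coverage above 1, and 36 had an RPB2 relative coverage above 1. RPB2 coverage as deposited was at or below that of input at 69 of the 168, although the RPB2 files hold more reads, and it exceeded 5 times input at 30. At those 69 stretches the positive ratio thus stands for little Pol III rather than for RPB2 above the input level. Of the 165 with a smaller RPB2 share, 141 had Pol III relative coverage above 1.

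RPB2 and Pol III nonetheless ordered the stretches much alike. Spearman's rho between mean RPB2 and mean Pol III coverage was 0.816 across all 532 stretches, 0.602 across the 170 where Pol III relative coverage was above 1, called loaded from here on, and 0.704 across the other 362. These points share their libraries, and the values are a description. The increase was less than proportional. In eighths of the stretches ordered by Pol III coverage from low to high, the median log2 ratio of tested members was 1.76, 1.66, 1.17, 0.65, -0.26, -0.95, -1.23 and -1.35. Pol III coverage is the denominator of this ratio, so part of such a trend follows from how it is built. The filter adds to this. It used the mean of all 6 libraries, so a stretch with little Pol III passed only where RPB2 was high enough. In the lowest eighth 25 of 67 stretches were tested and all 25 were higher. In the next 56 of 66 were tested and 53 were higher. Among the 3 highest eighths, which reach from 29.8 to 294 reads per base, the medians differed by less than the interquartile range within each.

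**Figure D1:**
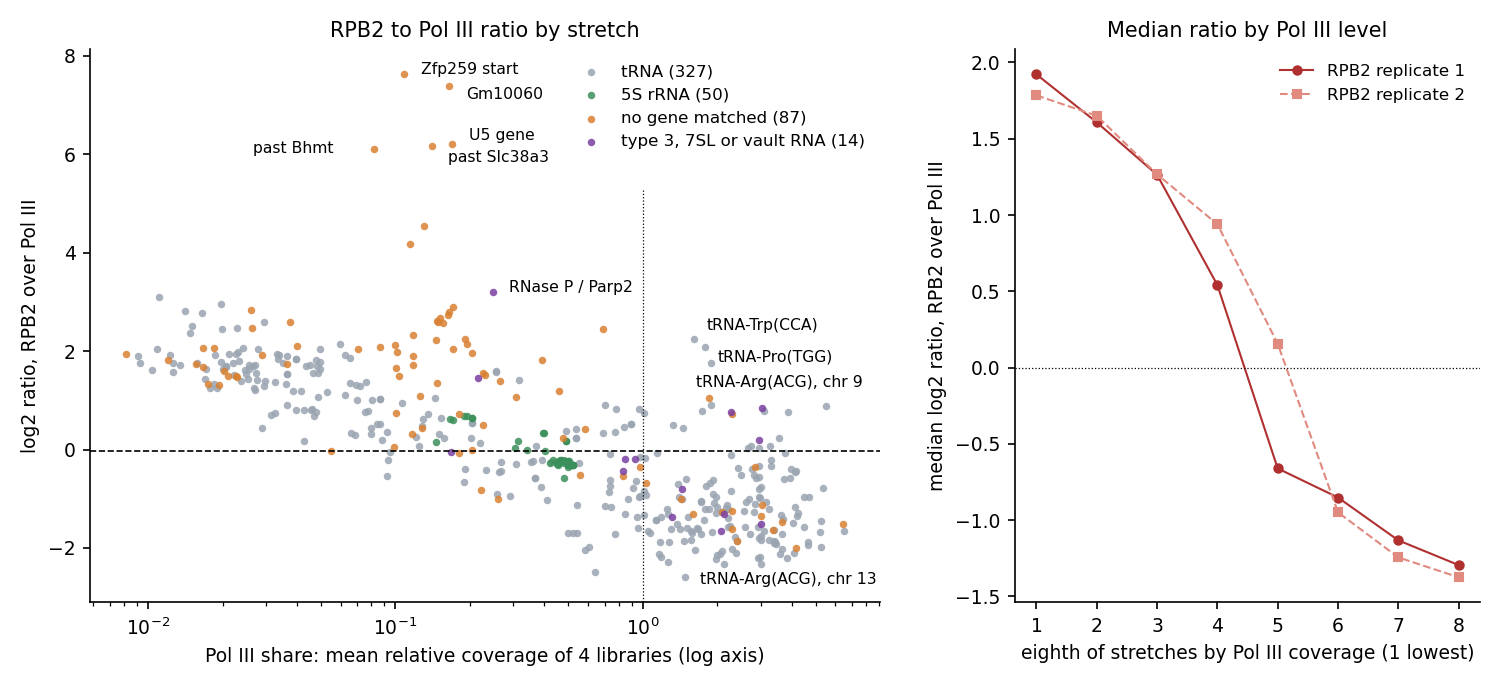
Left, the log2 ratio of RPB2 over Pol III of each of the 478 tested stretches against the mean Pol III relative coverage of 4 libraries (log axis), coloured by kind of gene. The dashed line is the median ratio and the dotted line the file average. Right, the median log2 ratio of tested members in eighths of all stretches by Pol III coverage. Lines give each RPB2 library against the mean of the Pol III libraries, from 1.92 and 1.78 to -1.29 and -1.37.

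The 12 stretches with the highest ratio held no loaded Pol III gene. The first of them lies over the start of Zfp259 (chr9:46080610-46081261), 608 bp past the 3′ end of Apoa5, which codes for a liver apolipoprotein. RPB2 relative coverage there was 31.8 and 27.5, against 0.128 and 0.0930 for RPC1 and 0.102 and 0.110 for RPC4. Both RPB2 values lay far above all 4 Pol III values. Mean coverage was 146 ± 21.9 reads per base for RPB2 (SD, n = 2), 4.78 ± 1.49 for Pol III (SD, n = 4) and 0.934 in input. The log2 ratio was 7.62 (SE 0.214, adjusted p = 5.54e-08, limma). The RPB2 maximum lay at 46081134, 13 bp before the annotated start at 46081147, and the maxima of the 2 RPB2 libraries were 1 bp apart, whereas the Pol III maximum lay 233 bp away. The ETS-type letters CCGGAAGT, chosen after this sequence had been seen, occur on either strand in 5 of 532 stretches (0.94%), and they end at the base before this start. Among the 168 higher stretches only this 1 has them, and among the 165 lower ones 2 do.

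The stretch over Gm10060 (chr8:19784551-19785003) came next, at 7.38 (SE 0.26, adjusted p = 1.99e-07, limma). RPB2 relative coverage was 28.7 and 40.4, against 0.120 and 0.209 for RPC1 and 0.198 and 0.133 for RPC4. The groups lay far apart here too, but 39.4% of its bases had fractional coverage and its input coverage was 4.94, and the part of these in the result was not tested. The RPB2 maximum lay 12 bp from that of Pol III, at coverages of 169 and 7.09 reads per base. Together with the Zfp259 stretch it held 15.3% and 16.4% of all coverage in the 2 RPB2 files.

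At 3 further stretches RPB2 was high beside genes of Pol II, at a ratio over 6. One reaches 19 bp into an annotated U5 gene (chr9:65049094-65049551), which codes for a spliceosomal RNA made by Pol II, with RPB2 relative coverage of 22.9 and 10.6, against 0.161 and 0.151 for RPC1 and 0.173 and 0.195 for RPC4. The next lies 997 bp past the 3′ end of Slc38a3 (chr9:107551218-107551973), which codes for an amino acid transporter of liver cells, with 14.4 and 11.7 for RPB2 against 0.103 to 0.177 for Pol III. Another lies 1332 bp past the end of Bhmt (chr13:94384987-94385514), a liver enzyme of homocysteine metabolism, with 9.84 and 6.96 for RPB2 against 0.0415 to 0.121 for Pol III. Their log2 ratios were 6.21 (SE 0.303), 6.17 (SE 0.236) and 6.10 (SE 0.277), with adjusted p-values of 1.06e-06, 2.66e-07 and 8.49e-07 (limma). At the U5 stretch the summed RPB2 maximum lay 7.5 bp from the end of the listed stretch and at the Bhmt stretch 34.5 bp, so a higher maximum outside could not be seen. Over all stretches within 5 kb past a 3′ end, 9 of 51 tested were higher and 30 lower (median log2 ratio -0.57), so those beside Slc38a3 and Bhmt were not typical of that position.

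The other 7 were lower in RPB2. A stretch 251 bp from the start of Pabpn1, which codes for a nuclear poly(A) binding protein, had 4.48 and 3.51 for RPB2 against 0.116 to 0.151 for Pol III (log2 ratio 4.53, SE 0.247). One inside Dap, a gene named for cell death, had 2.82 and 2.75 against 0.0901 to 0.145 (4.18, SE 0.242). The RNase P RNA gene was eighth. It lies 24 bp from the start of Parp2, a DNA repair gene, with 2.48 and 2.72 for RPB2 against 0.202 to 0.292 for Pol III (3.20, SE 0.25, adjusted p = 1.17e-05, limma). That it is the RNase P RNA gene is read from its neighbour Parp2 in the RefSeq table of a later build.

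The last 4 had low coverage, from 2.14 to 7.71 reads per base for RPB2. A tRNA-Trp(CCA) gene on chromosome 10 (chr10:23496739-23497110) had RPB2 relative coverage of 0.544 and 0.320 against 0.00698 to 0.0170 for Pol III, and a mean RPB2 coverage of 2.14 beside 0.784 in input. A tRNA-Val(AAC) gene in Ubr4 and stretches in Pisd and Dhx9 had log2 ratios of 2.96, 2.89 and 2.83. At the Pisd stretch the RPB2 and input coverages were 7.71 and 5.92, close to each other despite the deeper RPB2 files. With the scaling on low stretches the RNase P and Pisd stretches lost the call (log2 ratios of 0.54 and 0.31), and the other 10 kept it.

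Of the loaded stretches, 14 of 170 had a larger RPB2 share, 141 a smaller share and 15 no call. The 14 were singled out after their values had been seen. A tRNA-Trp(CCA) gene on chromosome 10 (chr10:90644007-90644378), 9248 bp from the start of Tmpo, had RPB2 relative coverage of 6.58 and 9.21, against 1.47 and 1.94 for RPC1 and 1.56 and 1.46 for RPC4. A tRNA-Pro(TGG) gene on chromosome 14 (chr14:51710172-51710543), 209 bp from the start of the ribonuclease gene Rnase4, had 9.85 and 5.96 for RPB2, against 1.75 and 1.79 for RPC1 and 1.75 and 1.86 for RPC4. At both, the RPB2 values lay above all Pol III values, with log2 ratios of 2.25 (SE 0.164, adjusted p = 8.36e-06) and 2.08 (SE 0.177, adjusted p = 1.51e-05, limma). A tRNA-Glu(TTC) gene in Elf1, 250 bp from the start of the splicing gene Wbp4, followed with 5.42 and 7.79 for RPB2, against 1.86 to 1.90 for Pol III (1.77, SE 0.144, adjusted p = 1.33e-05).

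The tRNA-Arg(ACG) gene on chromosome 9 printed above combined much of both. It lies 235 bp from the start of Sacm1l, a gene for a lipid phosphatase, and held the fifth highest RPB2 and the third highest Pol III coverage of all stretches. RPB2 relative coverage was 11.2 and 9.28, against 5.63 and 5.90 for RPC1 and 5.17 and 5.23 for RPC4. The groups did not overlap, and the log2 ratio was 0.89 (SE 0.0725, adjusted p = 1.33e-05, limma). Coverage was 50.4 ± 8.82 for RPB2 (SD, n = 2), 237 ± 54.3 for Pol III (SD, n = 4) and 1.63 in input.

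The other 10 of the 14 had log2 ratios from 0.23 to 1.05. They were a stretch with no matched gene whose nearest protein-coding start is Klrb1c, 1 inside Polr3e, which itself codes for a Pol III subunit, the vault RNA gene, a 7SL gene at the start of Rps29, and tRNA genes for Pro(CGG), Gln(TTG), Arg(CCG) (2 genes), Ser(CGA) and Glu(TTC). At the Polr3e stretch RPB2 was 4.48 and 3.21, against 2.03 and 1.89 for RPC1 and 2.56 and 2.71 for RPC4. The lowest of the 14, the tRNA-Glu(TTC) gene on chromosome 14 near Nufip1, had 4.09 and 4.17 for RPB2, against 4.02 and 3.91 for RPC1 and 3.16 and 3.12 for RPC4, a margin of 0.23 (SE 0.0764, adjusted p = 0.0246, limma).

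The calls of these 14 rest on the scale of shares. With the scaling on low stretches all 14 ratios were below 0 and all 14 were called lower. In the fit of all 12 libraries 4 of them were still called higher. So were 6 when coverage was taken only from the 150 bp around the Pol III maximum. That window is placed where Pol III is highest and keeps the averages of whole files, so it favours Pol III. With it the median ratio over tested stretches was -0.40. Of the 14, 4 lay within 500 bp of a protein-coding start, as did 27 of the 170 loaded stretches.

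**Figure D2:**
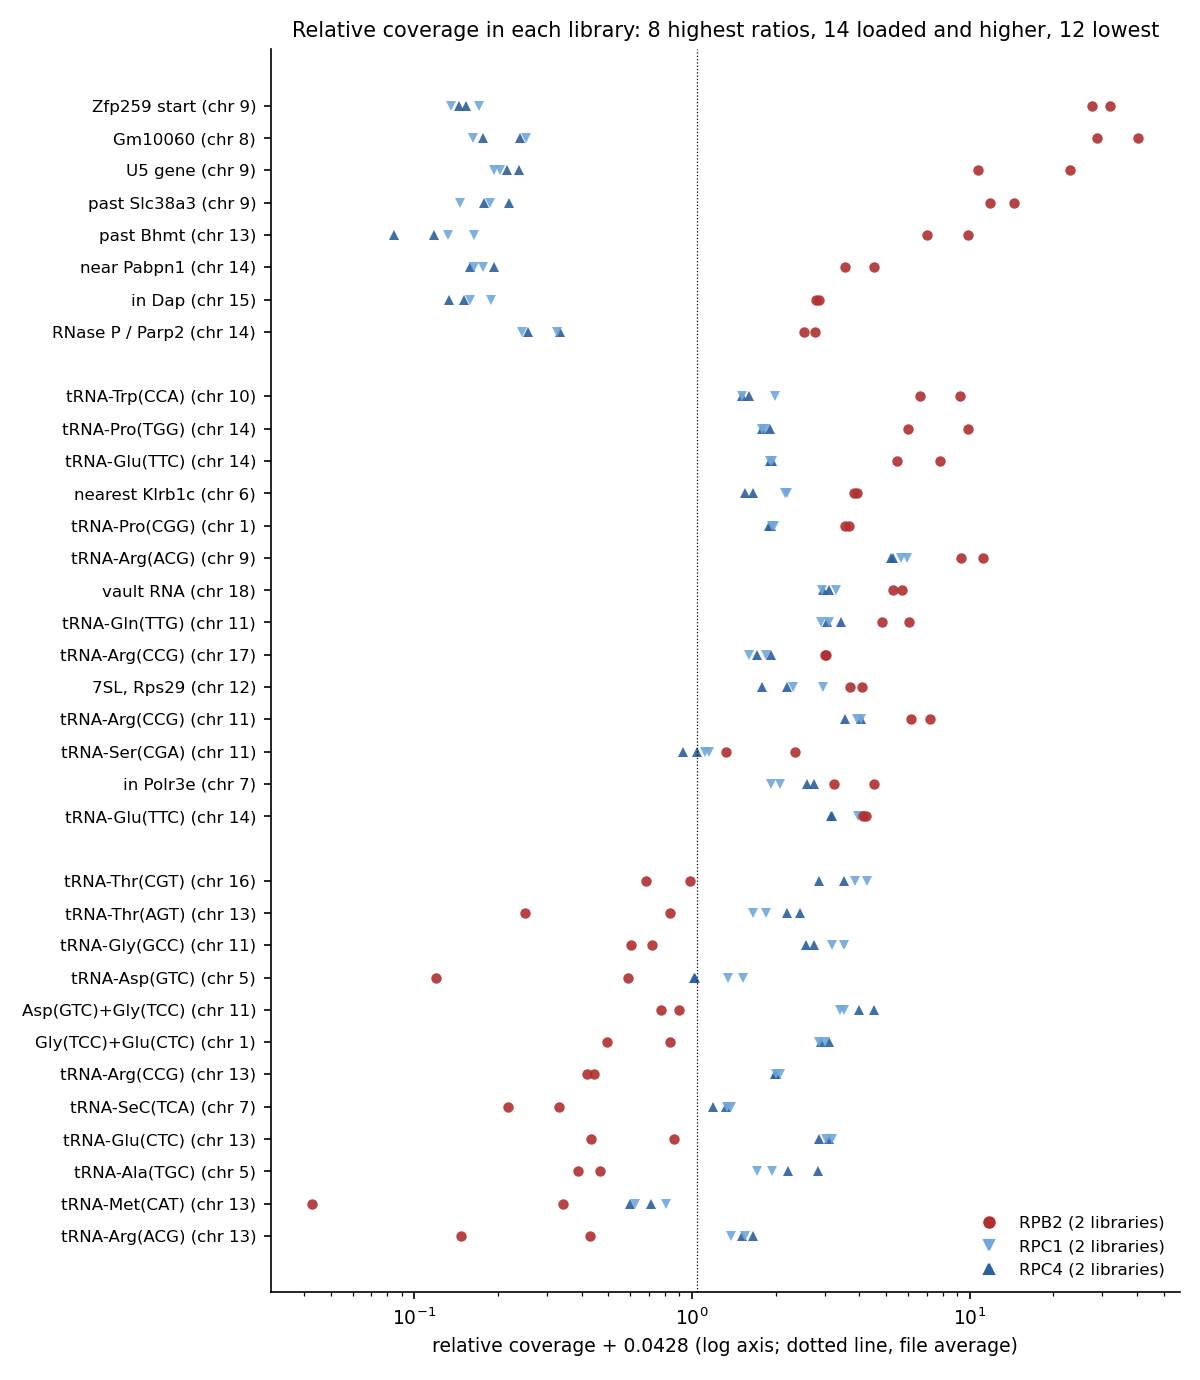
Relative coverage in each of the 2 RPB2, 2 RPC1 and 2 RPC4 libraries (log axis, pseudocount of 0.0428 added) at the 8 stretches with the highest ratio, the 14 loaded stretches with a larger RPB2 share, and the 12 with the lowest ratio, from top to bottom. Points right of the dotted line are above the file average. RPB2 lies right of all Pol III points in the first and second block and left of them in the third, by a wide margin in the first.

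The 12 stretches with the lowest ratio all held tRNA genes, all lay outside protein-coding genes and at least 1390 bp from a protein-coding start, and 5 of them were on chromosome 13. These positions were common among loaded stretches in general. Of the 170, 146 held tRNA genes and 153 lay outside protein-coding genes. Over 500 bp from a start lay 143, and 37 were on chromosome 13. The lowest was the tRNA-Arg(ACG) gene printed first (chr13:22112863-22113235). RPB2 relative coverage was 0.388 and 0.104, against 1.34 and 1.51 for RPC1 and 1.46 and 1.62 for RPC4. Both RPB2 values lay below the Pol III values, but they differed widely from each other, and RPB2 coverage (1.23 ± 1.04 reads per base, SD, n = 2) was low, beside 65.4 ± 21.4 for Pol III (SD, n = 4) and 0.812 in input. The log2 ratio was -2.60 (SE 0.383, adjusted p = 0.000292, limma).

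The tRNA-Met(CAT) gene printed above had no RPB2 read in replicate 1 and a relative coverage of 0.30 in replicate 2, against 0.760 and 0.581 for RPC1 and 0.669 and 0.553 for RPC4 (log2 ratio -2.49, SE 0.675, which depends on the pseudocount, adjusted p = 0.0088, limma). A tRNA-Ala(TGC) gene on chromosome 5 had 0.424 and 0.346 for RPB2, against 1.90 and 1.67 for RPC1 and 2.18 and 2.80 for RPC4 (-2.33, SE 0.195). The gene for the selenocysteine tRNA, tRNA-SeC(TCA), whose tRNA reads a stop codon and whose promoter is of an unusual kind, had 0.174 and 0.290 for RPB2, against 1.34 and 1.30 for RPC1 and 1.28 and 1.14 for RPC4 (-2.28, SE 0.244, adjusted p = 5.19e-05). RPB2 was below Pol III in each library at these genes.

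The other 8 held tRNA genes for Glu(CTC), Arg(CCG), Asp(GTC), Gly(GCC), Thr(AGT) and Thr(CGT), and 2 pairs, Gly(TCC) with Glu(CTC) and Asp(GTC) with Gly(TCC). Their log2 ratios ran from -2.32 to -2.13. The pair of tRNA-Asp(GTC) and tRNA-Gly(TCC) genes on chromosome 11 had the most Pol III of the 12, at 172 reads per base, with RPB2 relative coverage of 0.731 and 0.858, against 3.49 and 3.37 for RPC1 and 3.96 and 4.48 for RPC4 (-2.20, SE 0.127, adjusted p = 2.19e-06, limma). RPB2 coverage over the 12 was 0.713 to 3.899 reads per base, so their ratios rest on few RPB2 reads. The scaling on low stretches and the 150 bp around the Pol III maximum kept all 12 calls, but both move the median ratio down. The fit of all 12 libraries kept 6.

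The stretches with the most Pol III were also on the low side, apart from the tRNA-Arg(ACG) gene on chromosome 9. The highest Pol III coverage, 294 reads per base, was at a stretch with no matched gene at the start of Agbl5 on chromosome 5 (chr5:31190738-31191110), where RPB2 was 2.49 and 1.93, against 5.14 and 5.50 for RPC1 and 7.78 and 7.45 for RPC4 (log2 ratio -1.52, SE 0.102, adjusted p = 5.04e-06, limma). A tRNA-His(GTG) gene on chromosome 2 had 288 reads per base and a ratio of -1.65, a tRNA-Ser(GCT) gene 138 bp from the start of Casc5 had 236 and -0.77, and a tRNA-Met(CAT) gene 273 bp from the start of Fbxo31 had 231 and -1.98. RPB2 relative coverage was above 1 in both libraries at all of these, so a smaller share did not mean that RPB2 was low.

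Among kinds of genes, loaded tRNA genes had a median log2 ratio of -1.28 (10 higher and 122 lower of 146 tested) and the other tRNA genes 0.95 (96 higher and 23 lower of 181). Over all tRNA stretches 106 of 327 were higher and 145 lower, with a median of -0.23. Stretches with no matched gene split in the same way. Those that were loaded had -1.29 (2 higher and 14 lower of 16) and the rest 1.82 (56 higher and 1 lower of 71). In both kinds the loaded stretches were the low ones. Loaded is defined by Pol III, the denominator of the ratio, so much of this split follows from how the groups were formed. The filter adds to it, since stretches with little Pol III were tested only where RPB2 was high enough.

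Loaded tRNA genes also differed by amino acid, without a test of the differences. Among amino acids with at least 4 loaded stretches, the lowest medians of the log2 ratio were those of tRNA-Ala (-1.81, 6 stretches), tRNA-Cys (-1.67, 4), tRNA-Asp (-1.65, 7) and tRNA-Leu (-1.63, 9), where all 26 stretches were lower. These amino acids were picked for their low medians, and over all loaded tRNA stretches 122 of 146 were lower. The highest were those of tRNA-Glu (-0.17, 9 stretches, 2 higher and 4 lower), tRNA-Arg (-0.59, 13 stretches, 3 higher and 8 lower) and tRNA-Thr (-0.59, 6 stretches, 5 lower). tRNA-Cys genes that were not loaded went the other way: 36 of 43 tested were higher and 0 lower (median 1.62), but RPB2 coverage exceeded that of input at only 11 of all 53. The limits of denominator and filter given above hold for them too.

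The 50 5S rRNA genes on chromosome 8, all inside the gene model Gm20388, stayed near the common ratio, with 0 higher and 0 lower of 50 and log2 ratios from -0.58 to 0.68 (median -0.24). The RPB2 libraries disagreed there. The median ratio was -0.65 with replicate 1 and 0.17 with replicate 2, and replicate 2 was the higher in 50 of 50. A median of 99.9% of bases in these stretches had fractional coverage, so the 50 are not separate measurements.

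The type 3 and 7SL genes spread from -1.65 to 3.20 on the log2 scale, with 3 higher and 5 lower of 13. After the RNase P RNA gene came a U6 gene on chromosome 10 (chr10:79448101-79448507) with 0.795 and 0.550 for RPB2, against 0.195 and 0.258 for RPC1 and 0.198 and 0.211 for RPC4 (log2 ratio 1.45, SE 0.268, adjusted p = 0.00104, limma). The 4 other U6 genes, which code for the catalytic RNA of the spliceosome, had -0.05, -0.18, -0.44 and -0.80, and of these the last was lower (SE 0.197, adjusted p = 0.00507). The 7SL genes, whose RNA is the core of the signal recognition particle, had 0.77 (SE 0.143, adjusted p = 0.00107) at Rps29 and 0.19 (SE 0.148, adjusted p = 0.293) near Nemf. Their names were read from neighbours in the RefSeq table too.

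The genes lowest on this list were 7SK, U6atac, 1 of 2 Y RNA genes and the RNase MRP RNA gene. At 7SK (chr9:78022960-78023590), whose RNA holds the elongation factor P-TEFb of Pol II inactive, RPB2 relative coverage was 0.593 and 0.665, against 1.94 and 2.36 for RPC1 and 2.02 and 1.99 for RPC4. The groups did not overlap, at a log2 ratio of -1.65 (SE 0.167, adjusted p = 3.77e-05, limma). U6atac, of the minor spliceosome, had 1.02 and 1.01 for RPB2, against 2.45 and 2.66 for RPC1 and 3.34 and 3.58 for RPC4 (-1.51, SE 0.123). The RNase MRP RNA gene had -1.30 (SE 0.198), and the Y RNA genes on chromosome 6 had -1.36 (SE 0.204) and -0.19 (SE 0.273, adjusted p = 0.536). The vault RNA gene, with a promoter of the tRNA kind, had 0.84 (SE 0.0882).

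Stretches within 500 bp of a protein-coding start had a lower median ratio than the rest, and more of them were loaded (27 of the 41 tested, against 143 of the 437 others). Their median log2 ratio was -0.60 (10 higher and 23 lower of 41), against 0.06 for the others (158 higher and 142 lower of 437), a difference of -0.66, or -0.73 and -0.78 with each RPB2 library. Within loaded stretches the order turned round. The median was -1.07 for the 27 near a start and -1.35 for the 143 others. Median RPB2 relative coverage was 1.39 and 1.61 at the near ones, against 0.886 and 0.898 at the others, so both libraries were higher near starts. Pol III was higher there too. RPC1 medians were 2.99 and 2.99 against 2.25 and 2.32, and RPC4 medians 2.57 and 2.56 against 2.22 and 2.33. No test was made, because stretches are not replicates.

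Position along the chromosomes went with the ratio in the same descriptive sense. Loaded stretches with 5 or more others within 50 kb had a median log2 ratio of -1.44 (3 higher and 77 lower of 85), against -0.99 (7 higher and 35 lower of 49) for those with none. On chromosome 13 all 37 loaded stretches were lower (median -1.65). Most loaded stretches were lower anywhere, 141 of all 170 (82.9%), beside 90.6% of the 85 with 5 or more others near. On chromosomes 7, 14 and 17 the loaded medians were -0.57, -0.54 and -0.49, over 9, 8 and 6 stretches. Inside protein-coding genes, 5S genes left out, the median was 1.52 over 67 tested stretches, but it was -0.97 for the 17 loaded ones inside, against -1.30 for the 153 loaded ones outside.

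Copies of a tRNA gene with the same sequence could differ widely in the ratio. Of 131 loaded stretches with a single tRNA gene, 79 fell into 26 sets of 2 or more with identical gene sequence. Within a set the log2 ratio spanned a median of 1.03, from 0.0071 to 3.48, and 13 sets spanned over 1. In 4 sets 1 copy was called higher and another lower. The letters of the gene are the same within a set, and the spans include the error of both copies.

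The widest span was that of the tRNA-Arg(ACG) pair printed above, 0.89 on chromosome 9 and -2.60 on chromosome 13. RPB2 relative coverage was 11.2 and 9.28 at the first, against 0.388 and 0.104 at the second. The RPB2 share differed by 5.38 on the log2 scale and the Pol III share by 1.89, so both polymerases were more abundant on chromosome 9. Over 17 processing settings their difference ran from 2.84 (150 bp around the Pol III maximum) to 4.13 (without RPB2 replicate 1). Outside the gene the sequences were unlike, with 52 of 150 bases the same upstream (34.7%) and 42 of 150 downstream (28%), aligned without gaps.

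The tRNA-Pro(TGG) gene near Rnase4 differed by 2.92 from its copy on chromosome 17 (chr17:23683293-23683664), where RPB2 was 1.31 and 1.18, against 2.25 and 2.32 for RPC1 and 2.30 and 2.19 for RPC4 (-0.84, SE 0.134, adjusted p = 0.000434, limma). Between the copies the RPB2 share differed by 2.67 on the log2 scale and the Pol III share by 0.34. The difference in ratio stayed between 2.63 and 3.21 over the 17 settings. A tRNA-Pro(CGG) gene on chromosome 1 (3.51 and 3.63 for RPB2, against 1.85 to 1.93 for Pol III) likewise differed by 2.10 from its copy on chromosome 11 (0.820 and 1.06, against 2.08 to 2.39), with settings from 1.95 to 2.46. The tRNA-Glu(TTC) gene near Wbp4 differed by 1.73 from its copy on chromosome 1, whose ratio was 0.03 (SE 0.113, adjusted p = 0.8, limma). In the fourth set called both ways, the Glu(TTC) copies had 0.23 and -0.51.

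Some other sets were narrow. The 2 copies of tRNA-Ser(GCT) differed by 0.0071, those of tRNA-Leu(CAG) by 0.0137 and those of tRNA-Ala(AGC) by 0.0719, and in each set both were lower. The 4 copies of tRNA-Cys(GCA) spanned 0.38, with every copy lower. In the set of 6 tRNA-Asp(GTC) copies every copy was lower too, but that set was not narrow, at a span of 1.12.

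**Figure D3:**
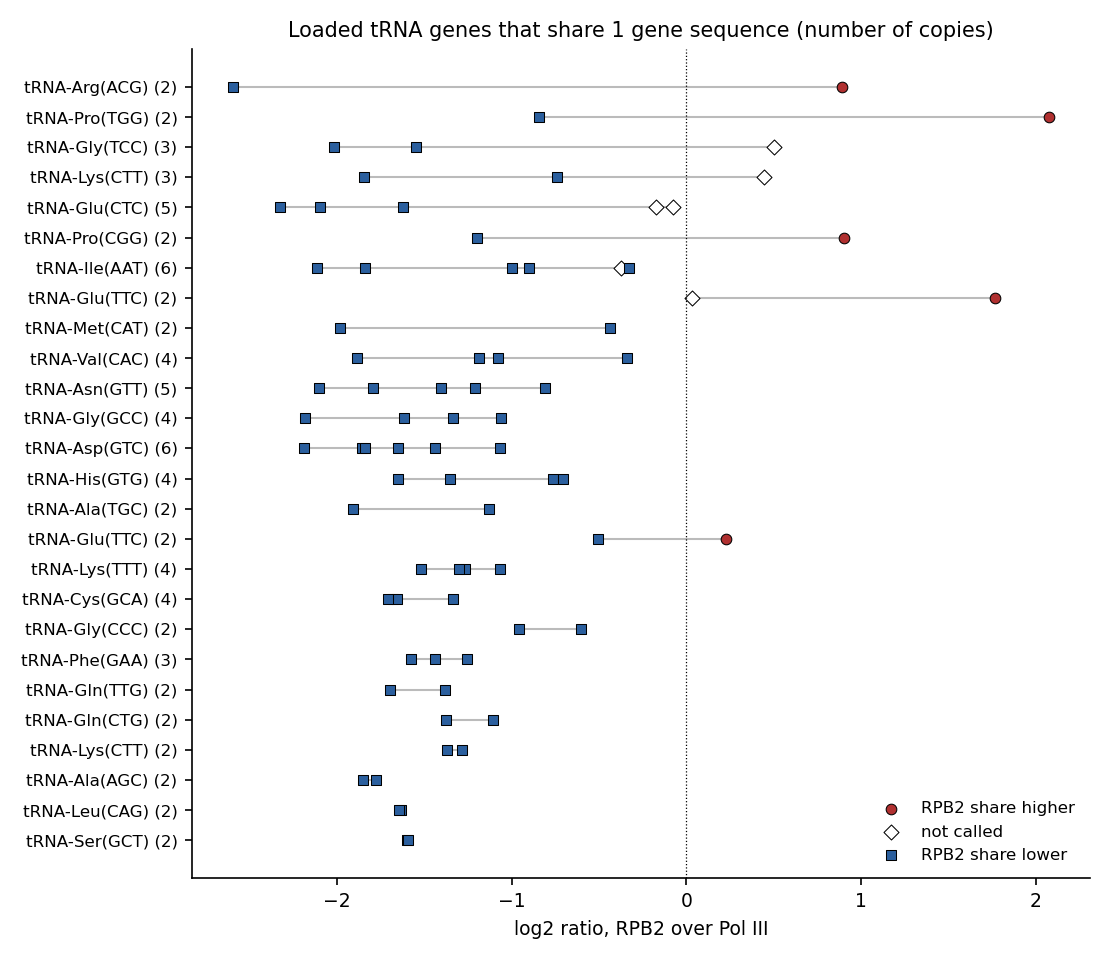
Log2 ratio of RPB2 over Pol III for the 79 loaded stretches in 26 sets of tRNA genes with identical gene sequence, 1 row a set, with the number of copies in parentheses and sets ordered by span. Circles mark a larger RPB2 share, open diamonds no call and squares a smaller share. The tRNA-Arg(ACG) set spans 3.48 and the tRNA-Ser(GCT) set 0.0071.

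The B box letters (GGTTCGA, any 2 bases, CC), searched on both strands, were more frequent in lower than in higher stretches over all tested ones. They occur in 26.8% of the 168 higher stretches and 64.8% of the 165 lower ones, and in 42.7% of all 532. The 2 groups differ in make-up, however, with 106 tRNA stretches among the higher and 145 among the lower. The letters occur in 58.8% of all 376 tRNA stretches, but in 5.4% of the 92 with no matched gene and in 0 of the 50 5S stretches. Among tRNA-Cys stretches 1 of 57 has them. Shares by call within tRNA stretches were not taken, so a link of the letters to the ratio was not tested. Among loaded stretches the shares were 7 of the 14 higher and 93 of the 141 lower (66.0%). None of the 12 highest, most of which held no tRNA gene, and 9 of the 12 lowest, all with tRNA genes, hold them. A looser form with any base in place of the G of GA, which includes the stricter one, occur in 56.0% of the higher, 78.8% of the lower and 62.2% of all stretches. Among loaded stretches it occurs in 10 of the 14 higher (71.4%) and 111 of the 141 lower (78.7%), shares close to each other. Median GC content was 47.7% in the higher and 44.2% in the lower stretches. A match is a description of the letters and not of binding.

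At the stretches with most RPB2 reads the median distance between the RPB2 and Pol III maxima was large, but single stretches differed. Of 404 stretches with at least 5 reads in both maxima, the median distance was 47 bp, or 48 and 49 bp with each RPB2 library (SD 0.707, n = 2). That was no larger than the 47 bp between the 2 RPB2 replicates, while RPC1 and RPC4 maxima were 27 bp apart. At this limit the distance between RPB2 and Pol III could not be told from the scatter of RPB2 itself. With at least 20 reads the distance was 57.25 bp over 124 stretches, against 36.75 bp between RPB2 replicates. A limit of 40 reads was added once the values were known, and with it the distance was 104 bp over 45 stretches, against 37 bp between RPB2 replicates and 30 bp between RPC1 and RPC4. Maxima of the shallow input files lay 97.5 bp from those of Pol III at the same 45. At 17.8% of the 45 the RPB2 and Pol III maxima lay within 25 bp of each other. At the Gm10060 stretch, with 1431 RPB2 reads at the maximum, they were 12 bp apart.

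**Figure D4:**
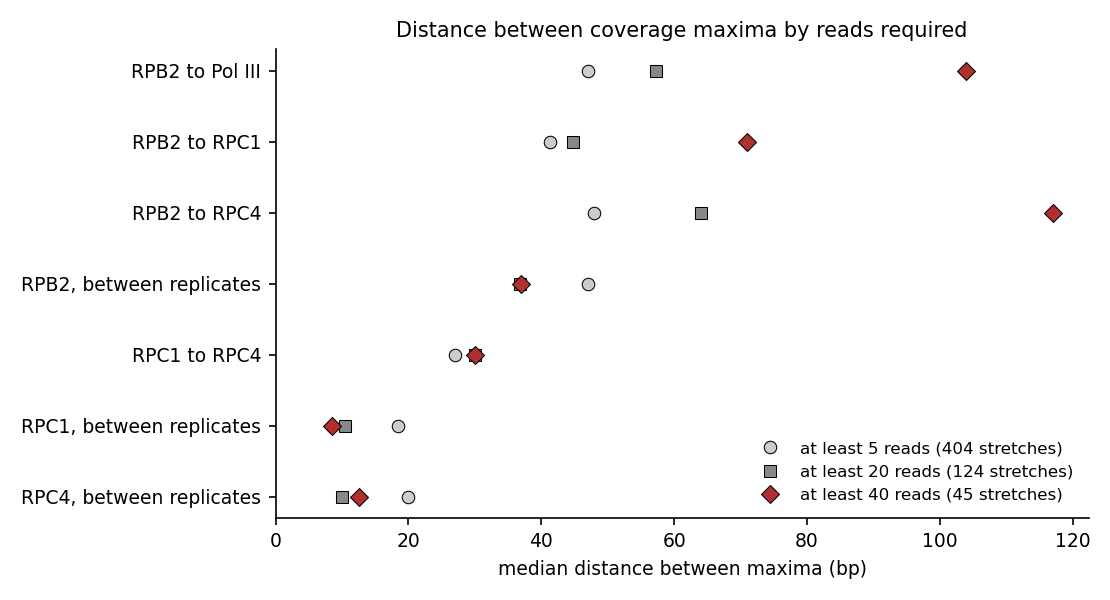
Median distance in bp between coverage maxima for pairs of libraries, by the number of reads required in both the RPB2 and the Pol III maximum (5, 20 and 40, with 404, 124 and 45 stretches). The distance from RPB2 to Pol III is 47, 57.25 and 104 bp, whereas that between RPB2 replicates is 47, 36.75 and 37 bp.

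Where RPB2 was high, its maximum lay upstream of that of Pol III at most stretches with a single gene. Over 30 stretches with a single gene of known strand and at least 40 reads, the median shift was -82.25 bp (minus is upstream), upstream at 27 of 30, with -98 and -100.5 bp for each RPB2 library. RPC1 itself lay upstream of RPC4, by -32.75 bp, and RPB2 lay -56.25 bp from RPC1 and -107.75 bp from RPC4. With at least 20 reads the shift was -45.5 bp over 81 stretches (58 upstream), and with at least 5 reads it was -9 bp over 315 (171 upstream, 117 downstream), or -0.5 and 0 bp with each RPB2 library. Those 315 were chosen on the summed reads of both libraries. With the 5 reads required of a single RPB2 library, the shift was -15 bp over 190 stretches for replicate 1 and -24.5 bp over 176 for replicate 2, so its size at the lowest limit depended on the stretches counted. Input maxima, which rest on far fewer reads, were set beside these at the same stretches. Their shift from Pol III was -50.75 bp with at least 40 reads (upstream at 18 of 30). It was -34 bp with at least 20 (49 of 81) and 11.5 bp with at least 5 (145 of 315). Whether the RPB2 shift exceeds that of input was not tested.

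The edge of the stretches bears on these values. RPB2 maxima lay within 25 bp of an end at 10 of 45 stretches, those of Pol III at 0 of 45. Without these the median shift was -55 bp over 22 stretches, upstream at 19, and with at least 20 reads -35 bp over 65, upstream at 46. With at least 5 reads it was -1 bp over 263. A maximum outside the listed stretch could not be seen, so the length of the stretch bounds the shifts.

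Mean profiles along tRNA genes gave the same order. In 21 tRNA genes with at least 40 reads, coverage of RPB2 was highest 62 and 60 bp upstream of the gene start, that of RPC1 11 and 10 bp upstream, and that of RPC4 24 and 43 bp past the start. Replicates of RPB2 differed by 2 bp. The RPB2 maxima, at 1.751 and 1.692 times the mean of the stretch, were broad on the upstream side. At 145 bp upstream, near the end of the profile, RPB2 still stood at 1.421 and 1.403. RPC1 had fallen to 0.513 and 0.392 there, and RPC4 to 0.255 and 0.227. The position of the RPB2 maximum thus does not mark a narrow peak. In 204 tRNA genes with at least 5 reads, the RPB2 libraries differed, with the highest points at -44 bp in replicate 1 and 49 bp in replicate 2, at 1.20 and 1.32 times the mean of the stretch. RPC1 peaked at 6 and 5 bp and RPC4 at 46 and 50 bp.

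**Figure D5:**
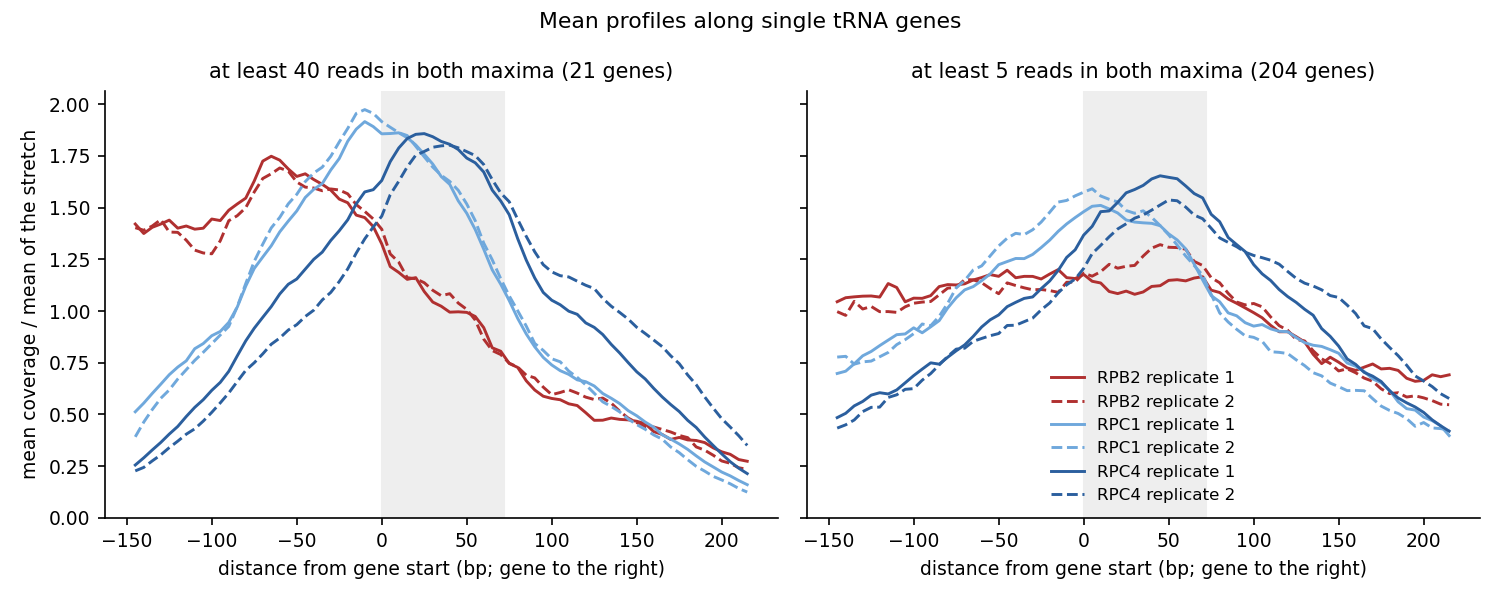
Mean coverage by distance from the gene start, divided by the mean of each stretch, for each RPB2, RPC1 and RPC4 library. Left, 21 single tRNA genes with at least 40 reads in both maxima; right, 204 with at least 5. The grey band is the first 72 bp of the gene. On the left RPB2 is highest at -62 and -60 bp, RPC1 at -11 and -10 bp and RPC4 at 24 and 43 bp. RPB2 stays above the mean of the stretch up to the upstream edge there, whereas RPC1 and RPC4 fall below it.

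The direction of the shift was not clearly toward the nearest protein-coding start. Of 32 stretches within 500 bp of such a start and with at least 5 reads, the RPB2 maximum lay on the side of the start at 20 and on the far side at 12. RPC1 lay on that side of RPC4 at 21 of 32, a count as large for 2 subunits of the same enzyme. With at least 20 reads the RPB2 count was 11 of 21. Single cases stand out by position. At the 7SL gene in Rps29 the RPB2 maximum lay 24 bp from the start of Rps29 and 174 bp from the Pol III maximum, but 1 bp from the end of the stretch. At the tRNA-Arg(ACG) gene on chromosome 9 it lay 104 bp from the Pol III maximum, with RPB2 replicates 2 bp apart.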

How the data were processed

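Coverage was analysed from 12 files, 1 per library. The values are a signal, reads per base, that the authors deposited without depth scaling as far as the values show: a lone read adds 1.0 over 76 bp. The genome build, per the submitters' processing notes, is mm9, and no aligner or rule for multiply placed reads is named in the labels. Library fragments measured about 250 bp after 15 PCR cycles, per the labels' protocols.

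Abutting lines were joined into stretches, and 1 further stretch on the X chromosome, listed in part, was left out. Relative coverage was taken as log2(value + 0.0428). Stretches at or below the quantile of 0.1 in mean relative coverage were not tested. RPB2 was tested against the mean of RPC1 and RPC4 in limma 3.58.1 (R 4.3.3) with a mean-variance trend, 3 residual and 5.61 prior degrees of freedom, two-sided, Benjamini-Hochberg threshold 0.05. An exact permutation test of 2 against 4 libraries cannot go below 0.133 (two-sided). Tables were made with Python 3.11.15, numpy 2.4.6 and pandas 2.3.3, and figures with matplotlib 3.10.9.

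tRNA genes were predicted by a cloverleaf search (at least 17 stem pairs), and other genes taken from GENCODE vM1. Distances to starts are from the stretch. A maximum is the middle of the highest plateau of summed coverage. Genes with near-identical copies share reads and are uncertain.

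On simulated data the fit recovered 100% of 50 stretches at a log2 difference of 2, 46.9% of 49 at 1, 41.7% of 48 at -1 and 83% of 47 at -2, and called 9 of 284 unchanged ones. The simulation gave all 6 libraries the same dispersion (0.05) and was scaled by the true depths. The real RPB2 libraries varied more than those of Pol III, so these values do not give the error rates of the real fit.

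Stretches named are the 12 highest and 12 lowest called and not overlapping, the 5 with most RPB2 and with most Pol III coverage, the type 3 and 7SL genes, and the 5 nearest the median; the loaded higher stretches and identical copies were added after their values were seen. Members and lists were chosen with earlier results of these data known. Other scalings, filters, pseudocounts, windows and left-out libraries were tried.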

Additional observations from a re-analysis of the deposited data

Results flagged for a closer look

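The H3K4-titled libraries enter the results above only through the list of shared stretches and the spread in the fit of all 12 libraries. They stood above input at 4 stretches among the 12 with the highest RPB2 to Pol III ratio. The rest of these 12 stretches are not described here. The antibody field of the H3K4-titled libraries names another mark than their titles, so only the title is used. Mean H3K4-titled coverage was 350.6 reads per base at the Gm10060 stretch (nearest protein-coding start 4930467E23Rik), against 4.94 in input. It was 9.64 at the start of Zfp259 against 0.934 in input, 21.3 at the RNase P RNA gene beside Parp2 against 0.541, and 12.1 at the stretch near Pabpn1 against 1.01. The H3K4-titled files hold 17033 and 26665 read equivalents and the input files 3563 and 3365, and coverage is not scaled for depth. Relative coverage, which is, was 36.2 and 53.4 in the H3K4-titled libraries at Gm10060, against 4.84 and 3.42 in input, and 3.27 and 2.56 at the RNase P RNA gene, against 0.298 and 0.620. It was near the file average at Zfp259 (1.35 and 1.24, against 0.859 and 0.706) and near Pabpn1 (1.77 and 1.5, against 0.539 and 1.18).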

How the results depend on the processing

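Counts of higher and lower stretches stayed within 1.5 times the values above under 19 alternatives each, merged regions (161 and 122), median of ratios (162 and 172) and totals without the 2 highest RPB2 stretches (195 and 146) included. The scaling on low stretches gave 14 and 356 (limma's prior degrees of freedom were infinite there, so its p-values rest on the trend alone), with a median of -2.735, interquartile range 2.96 and near minus far difference -0.83. The fit of all 12 libraries gave 92 and 66. The interquartile range was 2.05 with the pseudocount doubled, 2.96 with it quartered, 2.35 with RPC1 alone and 2.61 with RPC4 alone. With no filter the median was 0.24, the range 2.28 and the near minus far difference -0.91; that difference was -0.80 with RPC1 alone and -0.787 with RPC4 alone. The 150 bp around the Pol III maximum, a window that favours Pol III, gave a median of -0.40 and a range of 2.52.

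The median distance between maxima was 18.1 bp by centre of mass, 39.25 bp with a running mean, 57.25 and 104 bp with 20 and 40 reads, 39 bp with RPC1 alone and 37 bp without RPB2 maxima near stretch ends. The shift was -6.04, -2.5, -45.5 and -82.25 bp in the same order, 5.25 bp (reversed) with RPC1 alone, -12.25 bp with RPC4 alone and -1 bp without maxima near ends. The cause of these changes was not tested.

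Leaving out 1 library at a time gave 155 to 195 higher, 148 to 212 lower, a median of -0.15 to 0.17, an interquartile range of 2.34 to 2.49, a near minus far difference of -0.78 to -0.66, a distance of 43 to 57.5 bp and a shift of -24.5 to -5.5 bp.

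Of 1053 values of the 62 named stretches, 966 kept direction and call, 53 lost the call (24 with all 12 libraries) and 19 reversed. With the scaling on low stretches these were the tRNA genes Arg(ACG) on chromosome 9 (-1.96), Trp(CCA) (-0.57), Pro(TGG) (-0.75), Glu(TTC) (-1.06 and -2.61), Pro(CGG) (-1.92), Gln(TTG) (-2.05), Arg(CCG) (-2.05 and -2.07) and Ser(CGA) (-2.06), a U6 gene (-1.17), 7SL at Rps29 (-2.06), vault (-1.997) and the stretches near Klrb1c (-1.77) and in Polr3e (-2.10). In the 150 bp around the Pol III maximum they were vault (-0.11), Arg(CCG) on chromosome 11 (-0.31), Polr3e (-0.0086) and Glu(TTC) near Nufip1 (-0.41).

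No pairing by equal replicate number was seen (correlation of deviations 0.059 for RPB2 and RPC1, -0.18 for RPB2 and RPC4, -0.13 for RPC1 and RPC4). Such values cannot tell whether libraries of the same number share livers. With a replicate block 172 were higher and 166 lower, and 1 named call was lost (Glu(TTC) near Nufip1, adjusted p = 0.0539, limma). Depth also limits the values, since the RPB2 files hold few reads at the stretches with the lowest ratios.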
